A study of Homo sapiens with 9 samples.

Results

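Interferon-stimulated genes were examined as a group of 43 named genes in RNA sequencing of OVCAR5, an established epithelial line of human ovarian cancer. The members were taken from a list of symbols, which was matched to the gene identifiers of the count table through the GENCODE annotation. The matching used no expression value, but the list was chosen with earlier results of these data known. Counts of members called are therefore descriptions and not a test of the group. All 43 were found among the 60649 genes of the table, and all 43 passed the filter on low counts that left 19674 genes for testing. The table covered 9 libraries, with 3 each of the groups NC, SM2 and SM4. NC is labelled as the control, and the labels describe the other groups as METTL3 knockdowns. METTL3 is the catalytic subunit of the complex that writes N6-methyladenosine on RNA. Cells of every group had been infected with lentivirus, selected with puromycin and expanded as stable lines, and the sources do not say whether a line came from a single clone. The labels call the control parental whereas the study's methods describe a control hairpin, and the labels do not say which METTL3 hairpin belongs to SM2 and which to SM4. A source field of the labels gives the SM4 libraries other OVCAR line names, although their cell line field reads OVCAR5. The comparisons ask how the expression of these genes differed between each of SM2 and SM4 and the libraries labelled NC, and between SM2 and SM4 themselves.

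Interferons are secreted proteins that bind paired receptors at the cell surface and activate the kinases JAK1 and TYK2. These phosphorylate STAT proteins such as STAT2, which joins IRF9 in the complex ISGF3, and ISGF3 binds interferon-stimulated response elements (ISREs) in the promoters of interferon-stimulated genes. The products of those genes block virus entry, translation and replication, tag proteins with the ubiquitin-like protein ISG15, and feed back on the signal itself, and many tumour cells keep a part of the set expressed without added interferon.

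METTL3 itself, which the labels give as the targeted gene, was not called lower in either group. Its levels in CPM (counts scaled to the library size with TMM factors) were 36.2, 34.4 and 36.6 in NC, 37.0, 39.8 and 40.0 in SM2, and 60.5, 57.5 and 62.4 in SM4. The log2 fold change (log2FC) was 0.12 in SM2 (adjusted p = 0.12, not called) and 0.75 in SM4 (adjusted p = 2.21e-09). This was against the knockdown label of SM4, and groups are named below by their labels only, so that SM4 means the libraries labelled SM4. METTL3 was lowest in the libraries labelled NC and highest in those labelled SM4, the reverse of what the labels give. The study's supplement lists METTL3, MX1, TRIM22, SAMD9L and SAMD9 as lower with each METTL3 hairpin than with its control. For the first hairpin, its sizes match SM4 against NC here (0.75, 1.33, 1.50, 1.03 and 0.73, in that order), with the sign turned. For the second, its sizes for the last 4 match SM4 against SM2 in the same way (1.30, 0.94, 0.74 and 0.88). By METTL3 and by the supplement the libraries labelled SM4 hold the place of the control, so the label of NC is in doubt. Read so, each gene written below as higher in SM4 would be lower in the knockdown. Library totals ranged from 44103272 to 63693728 counts, so that 1 CPM corresponded to 43.9 to 63.2 counts. Replicates differed by more than sampling noise in every pair, with a chi-square per degree of freedom of 4.23 to 6.10 in 7 of the 9 pairs. SM2 replicate 3 stood apart from its group, at 16.8 and 13.9 in the pairs that contain it, and results that rest on it are given below with and without it. The sources do not say that replicates came from separate cultures, so the p-values measure the spread between these libraries, which may be technical. The epithelial markers KRT8 (4692 to 5984 CPM), KRT18, KRT19, EPCAM and CDH1 were abundant in all libraries, whereas the lineage transcription factor PAX8 was low (7.90 to 9.56 CPM) and WT1 was near 0.

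The interferon-stimulated genes were higher in SM4 than in NC across most of the group, and in SM2 for a minority of it. In SM4 against NC, 33 of 43 members were higher at an adjusted p below 0.05, beside 11.0% of all genes tested, and 1 member was lower, beside 10.2% of all genes. Of the 33 higher members, 8 were at least 2-fold higher, beside 1.83% of all genes: IFI6, IFI44L, EPSTI1, XAF1, IFI27, TRIM22, MX1 and SAMD9L. In SM2 against NC, 12 members were higher, beside 12.0% of all genes, and 2 were lower, beside 10.3%, and no member reached 2-fold. A share of 12 in 43 is above that background, but by much less than in SM4. The median log2 fold change of the members was 0.45 in SM4 and 0.07 in SM2, beside medians of all genes tested of -0.0011 and -0.0037. All 3 SM4 libraries lay above every NC library for 36 members, beside 19.1% of all genes, and all 3 SM2 libraries did so for 12 members, beside 18.0%. The comparisons with NC share the NC libraries and are not independent of each other. Were the libraries labelled SM4 the control, SM2 against NC would compare the knockdowns with each other. The contrast of SM2 with its control would then be SM4 against SM2, given below, and the small SM2 changes here would not measure a knockdown. In bulk RNA, a change in how many cells express a gene and a change in RNA per cell cannot be told apart.

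**Figure D1:**
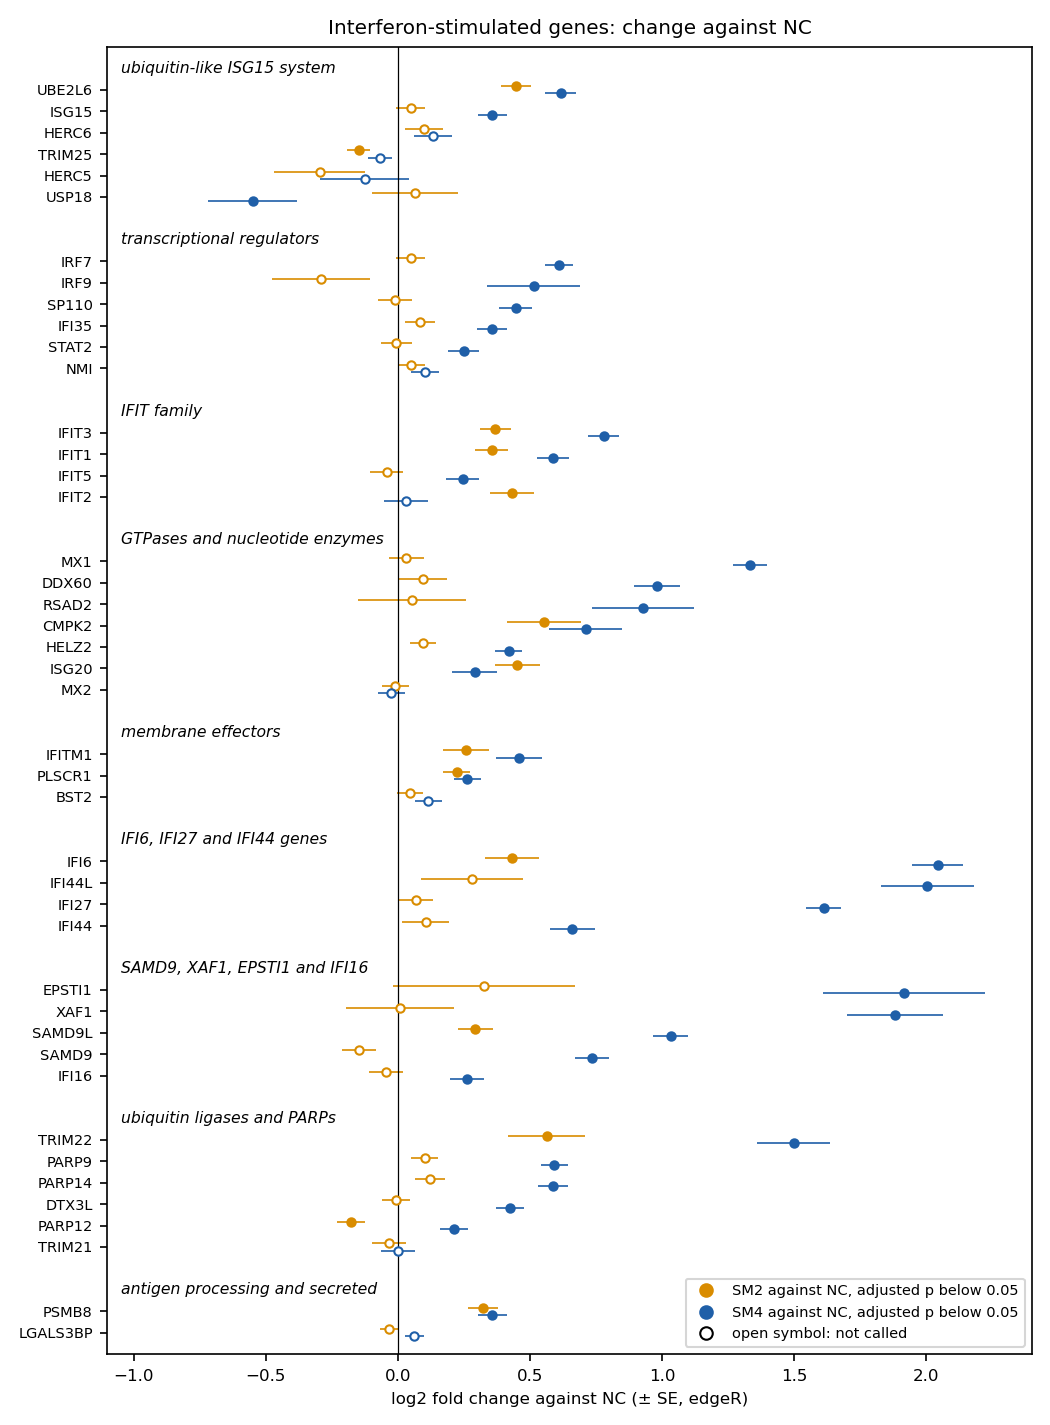
Log2 fold change against NC (x axis) of each of the 43 genes, grouped by role, for SM2 (orange) and SM4 (blue), with bars of 1 SE and filled symbols for an adjusted p below 0.05. The 33 genes called higher in SM4 spread from 0.21 (PARP12) to 2.04 (IFI6), while SM2 values lie between -0.30 and 0.56.

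The direct test of SM4 against SM2, in which the NC libraries enter only through the shared estimate of the spread, called 27 members higher in SM4, beside 6.04% of all genes, and 2 lower, beside 6.76%. The median log2 difference was 0.31. Each of the 27 was also among the 33 called higher than NC. The other 6 of those 33 were UBE2L6, CMPK2, ISG20, IFITM1, PLSCR1 and PSMB8, all of which were also called higher in SM2, and for these the difference between SM4 and SM2 was not called. UBE2L6 was close to the threshold (0.17, adjusted p = 0.0578), and IFITM1 (0.20, adjusted p = 0.14) was called without SM2 replicate 3 (0.25, adjusted p = 0.0451), without SM4 replicate 1 (0.30, adjusted p = 0.0344) and with no filter on low counts (adjusted p = 0.0384). Summed over the 43 members, the libraries held 2550 to 2621 CPM in NC, 2633 to 2644 CPM in SM2 and 3164 to 3301 CPM in SM4, so that the SM4 libraries did not overlap the others. Within SM4 the libraries were not equal: replicate 2 was the highest for 27 members and replicate 3 the lowest for 28.

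The promoters of the members were read next, because the ISRE is the element that ISGF3 binds. Promoter windows of RefSeq (GRCh38.p14), from 250 bases before to 50 bases after an annotated start site, were matched by symbol to 38 of the 43 members, the exceptions being USP18, IRF7, IFIT2, MX2 and TRIM22. The ISRE core was searched as GAAANNGAAA and the gamma-activated site (GAS) core, the element of the interferon-gamma response, as TTCNNNGAA, both on either strand. The ISRE core was in a window of 26 of the 38 members (68.4%) and of 4.38% of all 27305 genes with a window. The GAS core was in 13 of the 38 (34.2%) and in 9.38% of all genes, and in 5 members (BST2, EPSTI1, IFI27, IFITM1 and MX1) it shared letters with an ISRE match. Below are the 150 bases before the start site of 8 members, 5′ to 3′ on the gene's strand, with ISRE cores in capitals. They were chosen to set members with large changes in SM4 (IFI6, IFI44L, IFI27, XAF1) beside classical ISRE genes. Of the latter, ISG15 and IFIT1 changed less and BST2 and LGALS3BP were not called. EPSTI1, whose log2 fold change in SM4 (1.92) was above that of IFI27 and XAF1, is not shown and has an ISRE core.
IFI6, chr1:27672193-27672342, minus strand: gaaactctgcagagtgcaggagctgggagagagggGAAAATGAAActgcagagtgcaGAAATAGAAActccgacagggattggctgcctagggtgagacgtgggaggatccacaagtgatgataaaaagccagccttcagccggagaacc
IFI44L, chr1:78620298-78620447, plus strand: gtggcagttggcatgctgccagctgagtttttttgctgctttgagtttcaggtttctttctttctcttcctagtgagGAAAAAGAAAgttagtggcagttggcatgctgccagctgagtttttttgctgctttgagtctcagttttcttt
IFI27, chr14:94110586-94110735, plus strand: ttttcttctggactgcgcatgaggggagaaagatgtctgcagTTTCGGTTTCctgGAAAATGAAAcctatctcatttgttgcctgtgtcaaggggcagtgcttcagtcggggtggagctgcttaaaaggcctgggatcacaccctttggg
XAF1, chr17:6755297-6755446, plus strand: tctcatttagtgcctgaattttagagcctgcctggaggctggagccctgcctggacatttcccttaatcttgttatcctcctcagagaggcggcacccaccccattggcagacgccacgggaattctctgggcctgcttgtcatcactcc
ISG15, chr1:1013347-1013496, plus strand: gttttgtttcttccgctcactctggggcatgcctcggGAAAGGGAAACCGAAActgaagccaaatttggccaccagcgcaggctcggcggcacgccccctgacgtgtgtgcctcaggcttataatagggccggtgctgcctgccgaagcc
IFIT1, chr10:89392473-89392622, plus strand: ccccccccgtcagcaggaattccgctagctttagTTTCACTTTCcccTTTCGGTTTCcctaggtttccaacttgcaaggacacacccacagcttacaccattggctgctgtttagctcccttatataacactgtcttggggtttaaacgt
BST2, chr19:17405631-17405780, minus strand: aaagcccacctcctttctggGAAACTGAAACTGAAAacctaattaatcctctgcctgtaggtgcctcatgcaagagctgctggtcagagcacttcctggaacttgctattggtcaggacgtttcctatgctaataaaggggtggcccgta
LGALS3BP, chr17:78979924-78980073, minus strand: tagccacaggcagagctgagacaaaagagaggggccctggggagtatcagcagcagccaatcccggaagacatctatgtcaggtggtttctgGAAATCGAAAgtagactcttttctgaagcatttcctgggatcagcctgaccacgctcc

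In these stretches IFI6 carried 2 separate cores and IFI27 carried 2 on opposite strands, while in ISG15 and BST2 a run of GAAA repeats held 2 overlapping matches. The XAF1 stretch held none. A core did not separate the members that changed in SM4 from those that did not. Of the 26 members with an ISRE core 21 were called higher in SM4 (median log2 fold change 0.52), beside 11.0% of all genes. Of the 12 without it 10 were (median 0.43), with XAF1, SAMD9L and CMPK2 among these. Of the 5 members with a core that were not called in SM4, BST2, LGALS3BP, NMI and TRIM21 had log2 fold changes of at most 0.11 and HERC5 was at -0.13. In SM2, 7 of the 26 members with a core and 3 of the 12 without were called higher, beside 12.0% of all genes. A match is a description of letters, and no match says only that these letters are not in this window.

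**Figure D2:**
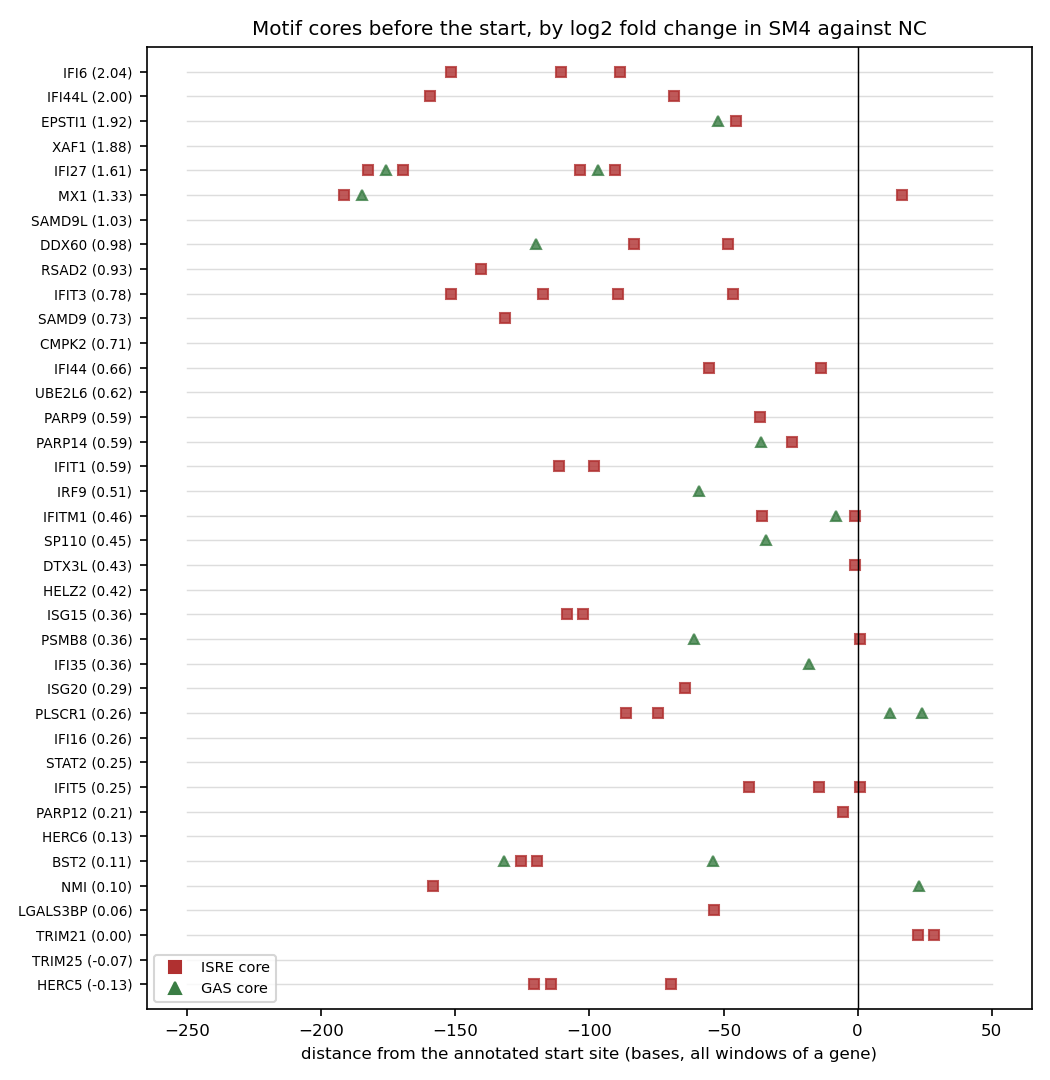
Positions of ISRE cores (red squares) and GAS cores (green triangles) relative to the annotated start site (x axis, in bases, with all RefSeq windows of a gene on its line) for the 38 members with a window, ordered by log2 fold change in SM4 against NC (in brackets). Matches are spread over the whole order, from IFI6 at 2.04 to HERC5 at -0.13, and 26 members carry at least 1 ISRE core.

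The IFI6, IFI27 and IFI44 genes had the largest median log2 fold change of the member groups in SM4 (1.81). All 4 rose in SM4, beside 11.0% of all genes, while in SM2 IFI6 alone of the 4 was called, beside 12.0% higher. IFI6 (ENSG00000126709, chr1:27666064-27672212), a small hydrophobic protein of mitochondria and endoplasmic reticulum, was at 10.6, 11.3 and 13.0 CPM in NC, 13.8, 15.0 and 18.4 CPM in SM2, and 45.8, 53.5 and 45.1 CPM in SM4. The 3 groups did not overlap and SM4 stood far above both others. The log2 fold change was 0.43 ± 0.10 (SE) in SM2 (adjusted p = 0.00331) and 2.04 ± 0.10 in SM4 (adjusted p = 3.81e-12), a fold of 4.12. Of the 50-base words of IFI6, 16.4% also lie in LINC02574, an overlapping gene on the same strand that had at most 0.0633 CPM in any library. IFI27 (ENSG00000165949, chr14:94104836-94116695), of the same family, was already well expressed, at 60.1, 61.1 and 63.5 CPM in NC and 60.8, 59.8 and 73.0 CPM in SM2, against 176, 202 and 187 CPM in SM4. SM2 overlapped NC, with only replicate 3 above it, and the log2 fold change was 0.07 (not called) in SM2 and 1.61 ± 0.07 in SM4 (adjusted p = 3.41e-13). Both paralogues rose in SM4, and in SM2 only IFI6 was called. The difference between their SM2 changes was not tested.

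IFI44L (chr1:78619902-78646145) and IFI44 (chr1:78649796-78664078) lie head to tail on chromosome 1 with 3651 bases between them and encode related cytoplasmic antiviral proteins. IFI44L was scarce in NC, at 1.19, 1.34 and 1.21 CPM, and reached 1.03, 1.70 and 1.79 CPM in SM2 and 4.88, 5.27 and 4.89 CPM in SM4. The SM4 libraries lay clear of all others while SM2 straddled NC, and the log2 fold change in SM4 was 2.00 ± 0.18 (adjusted p = 3.69e-08). This rested on 52 to 73 counts per NC library and 251 to 333 per SM4 library. IFI44 was at 9.33, 10.3 and 10.8 CPM in NC, 10.9, 11.2 and 10.6 CPM in SM2, and 17.7, 15.0 and 15.4 CPM in SM4, a log2 fold change in SM4 of 0.66 ± 0.09 (adjusted p = 7.21e-06). Neighbours on the chromosome thus differed in the size of their rise, and the 95% intervals of the log2 fold changes, 0.48 to 0.84 for IFI44 and 1.64 to 2.37 for IFI44L, did not overlap.

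The 5 members of the SAMD9, XAF1, EPSTI1 and IFI16 group all rose in SM4, beside 11.0% of all genes. SAMD9L alone was called in SM2, where 12.0% of all genes were higher. XAF1 (ENSG00000132530, chr17:6755447-6775647), a pro-apoptotic antagonist of XIAP, was at 1.14, 0.919 and 0.837 CPM in NC, 1.03, 1.04 and 0.830 CPM in SM2, and 3.63, 3.29 and 3.68 CPM in SM4. NC and SM2 overlapped fully, and every SM4 library lay above all of them. Its log2 fold change was 0.01 ± 0.21 in SM2 and 1.88 ± 0.18 in SM4 (adjusted p = 1.59e-07). Of the 50-base words of XAF1 transcripts, 34.7% also lie in the annotated antisense gene PRAL, which had 0 CPM in NC and SM2 and 0.0158 to 0.214 CPM in SM4. EPSTI1 (ENSG00000133106, chr13:42886388-42992271), a stromal-interaction gene induced by interferon, had the lowest level of the group, at 0.365, 0.349 and 0.222 CPM in NC, 0.328, 0.395 and 0.434 CPM in SM2, and 1.38, 1.19 and 0.936 CPM in SM4. SM4 did not overlap the other groups, and the log2 fold change of 1.92 ± 0.31 (adjusted p = 9.49e-05) had the widest error of the members, on 13 to 19 counts per NC library.

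SAMD9 and SAMD9L are paralogues that restrict poxviruses and lie 12033 bases apart on chromosome 7. SAMD9L was at 21.1, 19.0 and 18.9 CPM in NC, 24.4, 25.6 and 22.3 CPM in SM2, and 41.1, 40.4 and 39.1 CPM in SM4, with no overlap between any of the groups. Its log2 fold change was 0.29 ± 0.07 in SM2 (adjusted p = 0.00275) and 1.03 ± 0.06 in SM4 (adjusted p = 3.14e-10). SAMD9 was at 69.4, 66.6 and 64.2 CPM in NC, 66.2, 62.1 and 52.5 CPM in SM2, and 111, 115 and 106 CPM in SM4. It rose in SM4 by 0.73 ± 0.06 (adjusted p = 3.64e-08), and its log2 fold change in SM2 was -0.15 (adjusted p = 0.118). Without SM2 replicate 1 that value became -0.22 and was called (adjusted p = 0.0149). IFI16, a nuclear DNA sensor, changed least of these genes in SM4, from 24 to 26 CPM in NC to 29.4 to 31.4 CPM in SM4 (log2FC 0.26, adjusted p = 0.00466), with SM2 overlapping NC.

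**Figure D3:**
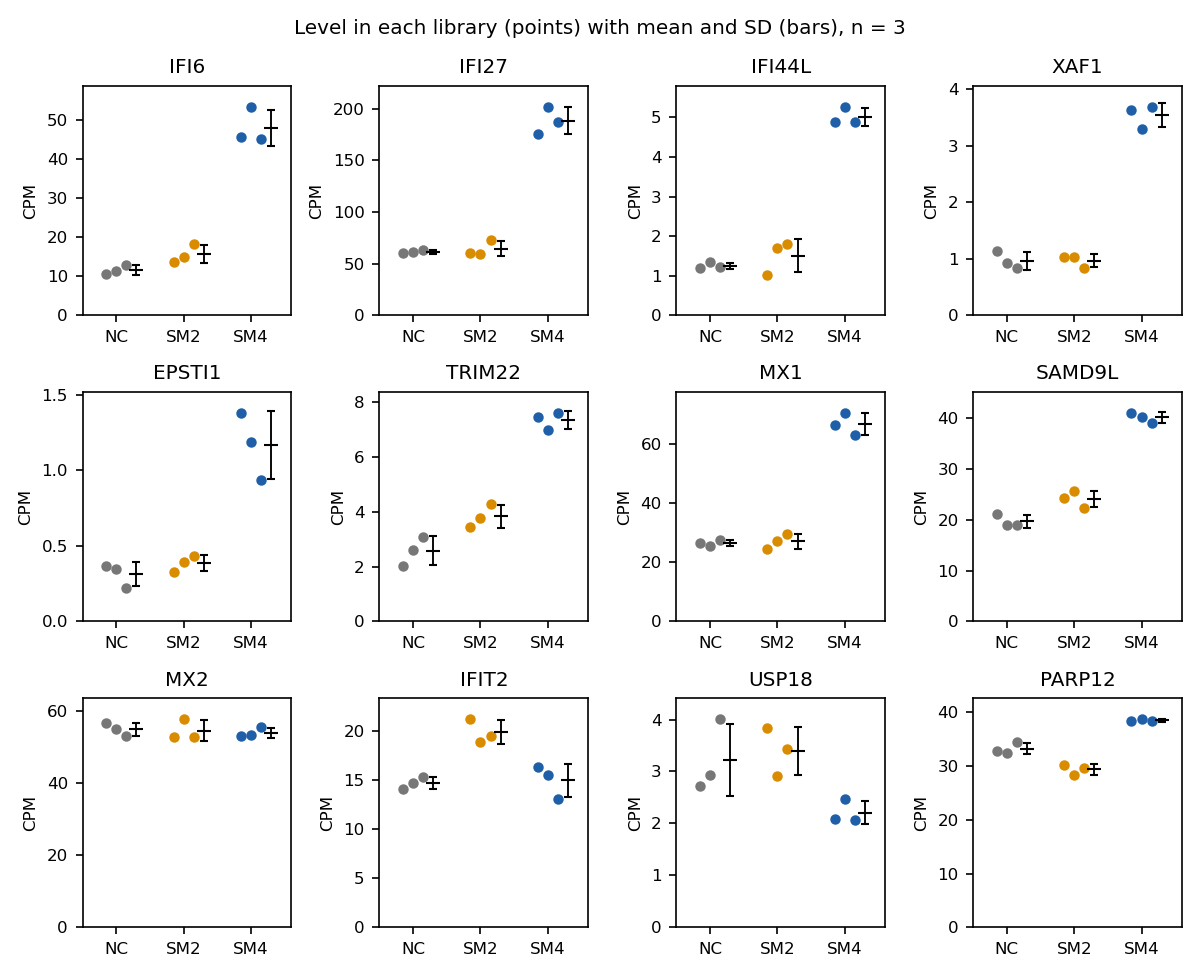
Level in CPM (y axis, from 0) in each library of NC, SM2 and SM4 for 12 members, with the mean and SD of the 3 libraries beside the points. In the upper 8 panels the SM4 libraries lie above all NC and SM2 libraries, MX2 is level over the groups, IFIT2 is highest in SM2, USP18 is lowest in SM4 and PARP12 is lowest in SM2 and highest in SM4.

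Among the GTPases and nucleotide enzymes, 6 of 7 rose in SM4, beside 11.0% of all genes, and 2 rose in SM2, beside 12.0%. MX1 (ENSG00000157601, chr21:41420020-41470071), a dynamin-like GTPase that traps viral nucleocapsids, was at 26.4, 25.6 and 27.5 CPM in NC, 24.6, 27.1 and 29.5 CPM in SM2, and 66.3, 70.6 and 63.1 CPM in SM4. The SM4 libraries stood above all others and SM2 straddled NC. MX1 changed on the log2 scale by 0.03 ± 0.07 in SM2 and 1.33 ± 0.06 in SM4 (adjusted p = 6.07e-12). Its neighbour MX2 (chr21:41361999-41409393, 10627 bases away), the related GTPase that restricts lentiviruses at the nuclear pore, was at 56.7, 55.0 and 53.2 CPM in NC, 53.0, 57.9 and 52.9 CPM in SM2, and 53.1, 53.5 and 55.6 CPM in SM4. All 3 groups overlapped. The log2 fold change of MX2 in SM4 was -0.02 with a 95% interval of -0.13 to 0.08, which lies far below the interval of MX1, 1.20 to 1.47. MX1 shares exon sequence on the opposite strand with TMPRSS2, which was at 21.5 to 25.6 CPM in NC, 34.0 to 34.6 CPM in SM2 and 32.3 to 35.1 CPM in SM4, and the share of this overlap in the MX1 counts was not tested.

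DDX60, an RNA helicase, and RSAD2, the radical enzyme viperin that makes a chain-terminating nucleotide, rose in SM4 but not detectably in SM2. DDX60 was at 10.1, 9.61 and 10.2 CPM in NC, 11.0, 11.5 and 9.45 CPM in SM2, and 20.04, 21.1 and 17.8 CPM in SM4 (log2FC 0.98 ± 0.09, adjusted p = 4.17e-08). RSAD2 was at 1.76, 1.25 and 1.28 CPM in NC, 1.73, 1.39 and 1.30 CPM in SM2, and 3.09, 2.69 and 2.30 CPM in SM4 (0.93 ± 0.19, adjusted p = 0.00124). In both genes SM4 lay apart while SM2 overlapped NC. CMPK2, the kinase that supplies the substrate of RSAD2 and overlaps it on the opposite strand of chromosome 2, followed another pattern. It was at 2.35, 2.79 and 2.77 CPM in NC, 3.54, 3.70 and 4.39 CPM in SM2, and 4.14, 4.76 and 4.07 CPM in SM4, so that SM2 and SM4 overlapped each other and both lay above NC. CMPK2 rose on the log2 scale by 0.55 ± 0.14 in SM2 (adjusted p = 0.00629) and by 0.71 ± 0.14 in SM4 (adjusted p = 0.000672). ISG20, an RNA exonuclease, was at 9.44, 10.7 and 11.3 CPM in NC, 13.7, 14.2 and 15.1 CPM in SM2, and 12.6, 13.6 and 12.3 CPM in SM4. It was called higher in both groups (0.45, adjusted p = 0.000495, and 0.29, adjusted p = 0.0171), and the SM4 call was lost without NC replicate 1 or SM4 replicate 2. HELZ2, a nuclear helicase and coactivator, was called in SM4 and not in SM2, from 101 to 107 CPM in NC to 137 to 144 CPM (0.42, adjusted p = 3.12e-06), and without SM2 replicate 3 it was also called in SM2 (0.15, adjusted p = 0.00844).

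The IFIT family binds foreign RNA and blocks its translation, and its 4 members lie side by side on chromosome 10 between 89283694 and 89421605. They did not move as a block. IFIT3 was at 19.8, 19.0 and 18.9 CPM in NC, 25.9, 24.4 and 24.2 CPM in SM2, and 32.5, 33.6 and 32.8 CPM in SM4. IFIT1 was at 23.4, 24.3 and 24.9 CPM in NC, 32.1, 28.8 and 31.9 CPM in SM2, and 36.7, 37.8 and 34.6 CPM in SM4. Both genes stepped up from NC to SM2 to SM4 without overlap. Their log2 fold changes were 0.37 ± 0.06 (IFIT3, adjusted p = 0.000111) and 0.35 ± 0.06 (IFIT1, adjusted p = 0.000235) in SM2, and 0.78 ± 0.06 (IFIT3, adjusted p = 4.31e-09) and 0.59 ± 0.06 (IFIT1, adjusted p = 4.31e-07) in SM4. IFIT2, by contrast, was at 14.1, 14.7 and 15.4 CPM in NC, 21.2, 18.9 and 19.5 CPM in SM2, and 16.3, 15.5 and 13.1 CPM in SM4, so that only SM2 stood apart. It rose in SM2 by 0.43 ± 0.08 (adjusted p = 0.000579), was at 0.03 in SM4 (not called), and was lower in SM4 than in SM2 by direct test (-0.40 ± 0.08, adjusted p = 0.00188). IFIT5 had yet another pattern, at 28.1, 27.7 and 25.3 CPM in NC, 27.8, 25.3 and 25.7 CPM in SM2, and 33.5, 31.8 and 30.8 CPM in SM4, and was called in SM4 alone (0.25, adjusted p = 0.00673). That call was lost without NC replicate 3 or SM4 replicate 1. IFIT2 and IFIT3 share exon bases with LIPA on the opposite strand, which itself was higher in SM2 (118 to 128 CPM against 103 to 112 CPM in NC, log2FC 0.19). The overlap was 65 bases (1.5%) of the IFIT2 exons and 94 bases (1.9%) of those of IFIT3. IFIT2 shares more, 524 bases (12.1%), with a long non-coding gene on its own strand (ENSG00000232110). The part of these overlaps in the counts was not tested.

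Of the 6 members of the ubiquitin-like ISG15 system, 2 were higher and 1 lower in SM4, beside 11.0% and 10.2% of all genes, and 1 was higher and 1 lower in SM2, beside 12.0% and 10.3%, so the SM2 count lies near that of all genes. ISG15 (ENSG00000187608, chr1:1001138-1014540), the modifier itself, was at 73.0, 75.8 and 77.2 CPM in NC, 73.1, 75 and 85.7 CPM in SM2, and 95.4, 99.4 and 94.8 CPM in SM4. SM4 lay above both other groups and SM2 overlapped NC. For ISG15 the log2 fold change was 0.05 ± 0.06 in SM2 and 0.36 ± 0.05 in SM4 (adjusted p = 5.54e-05). UBE2L6, the E2 enzyme that carries ISG15, was at 43.3, 42.7 and 47.9 CPM in NC, 59.4, 60.3 and 62.9 CPM in SM2, and 67.9, 73.2 and 64.1 CPM in SM4, and rose in both (0.45 ± 0.06, adjusted p = 9.14e-06, and 0.62 ± 0.06, adjusted p = 9.82e-08). The ISG15 ligase HERC5 showed no such rise, at 2.46, 2.67 and 2.70 CPM in NC, 2.38, 2.16 and 1.85 CPM in SM2, and 1.87, 2.70 and 2.61 CPM in SM4. Its log2 fold changes were -0.30 and -0.13, neither called, with a 95% interval in SM4 of -0.48 to 0.22. The paralogue HERC6, a neighbour on chromosome 4, was also not called (0.10 and 0.13).

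USP18 (ENSG00000184979, chr22:18150118-18177397), the protease that removes ISG15 and that also blocks the interferon receptor, was the only member called lower in SM4. It was at 2.71, 2.94 and 4.01 CPM in NC, 3.83, 2.91 and 3.43 CPM in SM2, and 2.09, 2.47 and 2.07 CPM in SM4, so that every SM4 library lay below every other library. The log2 fold change was -0.55 ± 0.17 against NC (adjusted p = 0.0223) and -0.62 ± 0.17 against SM2 (adjusted p = 0.0178). The call against NC was lost without NC replicate 3 (-0.36, adjusted p = 0.183), SM4 replicate 1 or SM4 replicate 3, and the call against SM2 without SM2 replicate 1, SM4 replicate 1 or SM4 replicate 3. Of the 50-base words of USP18, 23.2% also occur in other annotated genes, among them its copy USP41 (at most 0.270 CPM), so the level is uncertain where reads were shared. TRIM25, the ligase that ubiquitinates the RNA sensor RIG-I, was well expressed at 318, 321 and 312 CPM in NC, 298, 294 and 265 CPM in SM2, and 306, 303 and 298 CPM in SM4. It was lower in SM2 by a small amount (-0.15 ± 0.05, adjusted p = 0.0206), which became -0.09 (adjusted p = 0.0746) without SM2 replicate 3 and was also not called without NC replicate 1 or NC replicate 2.

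Of the 6 transcriptional regulators, 5 rose in SM4, beside 11.0% of all genes. None was called in SM2, where 12.0% of all genes were higher and 10.3% lower. IRF7, which amplifies interferon transcription, was at 38.8, 38.2 and 38.5 CPM in NC, 37.6, 40.7 and 41.1 CPM in SM2, and 56.5, 61.8 and 57.9 CPM in SM4 (log2FC 0.61 ± 0.05, adjusted p = 3.64e-08). STAT2, the ISGF3 subunit, was at 41.1, 39.2 and 40.9 CPM in NC, 38.2, 40.8 and 41.6 CPM in SM2, and 48.6, 44.3 and 51.2 CPM in SM4 (0.25 ± 0.06, adjusted p = 0.00359). In each of these genes SM4 did not overlap the other groups. IRF9, the DNA-binding subunit of ISGF3, was at 3.35, 3.49 and 3.79 CPM in NC, 1.84, 3.24 and 3.58 CPM in SM2, and 4.88, 4.41 and 5.97 CPM in SM4. Its rise in SM4 (0.51 ± 0.18, adjusted p = 0.0419) was close to the threshold and was lost without any of the NC replicates or without SM4 replicate 1 or 3. Of the 50-base words of IRF9, 22.4% occur in other genes, chiefly a gene that overlaps it on the same strand (ENSG00000259529) that was at 0.743 to 1.07 CPM in SM4 and 1.14 to 1.32 CPM in NC. SP110, a nuclear body protein, rose from 24.7 to 26.6 CPM in NC to 33.1 to 37.0 CPM in SM4 (0.45, adjusted p = 1.98e-05), and 17.8% of its 50-base words occur in other genes, chiefly an antisense gene (ENSG00000225963) at 0.0735 to 0.460 CPM. IFI35 rose from 34.8 to 35.4 CPM to 42.9 to 48.7 CPM (0.36, adjusted p = 7.87e-05), whereas its binding partner NMI was at 50.8 to 54.7 CPM in NC and 52.9 to 58.1 CPM in SM4 and was not called (0.10, adjusted p = 0.19).

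Ubiquitin ligases and PARPs rose in SM4 in 5 of 6 cases, beside 11.0% of all genes. TRIM22 (ENSG00000132274, chr11:5689610-5737089), an antiviral ligase, was at 2.03, 2.61 and 3.09 CPM in NC, 3.46, 3.76 and 4.28 CPM in SM2, and 7.46, 6.99 and 7.60 CPM in SM4. The groups stepped up without overlap, by 0.56 ± 0.14 in SM2 (adjusted p = 0.00715) and 1.50 ± 0.14 in SM4 (adjusted p = 7.35e-08). TRIM21, the cytosolic antibody receptor, was by contrast level at 24.3, 24.1 and 26.1 CPM in NC, 23, 23.8 and 25.9 CPM in SM2, and 24.7, 25.7 and 24 CPM in SM4, and its 95% interval in SM4 ran from -0.13 to 0.13. PARP9 and DTX3L form a complex of ADP-ribosylation and ubiquitin ligation and lie head to head on chromosome 3. PARP9 was at 52.0, 49.1 and 52.3 CPM in NC, 57.8, 54.7 and 51.9 CPM in SM2, and 77.0, 78.3 and 75.6 CPM in SM4 (0.59 ± 0.05 in SM4, adjusted p = 2.87e-08). DTX3L was at 64.8, 60.5 and 60.6 CPM in NC, 63.2, 64.3 and 57.2 CPM in SM2, and 85.2, 83.7 and 80.6 CPM in SM4 (0.43 ± 0.05, adjusted p = 3.99e-06). Both rose in SM4 and overlapped NC in SM2.

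PARP14, a mono-ADP-ribosyltransferase, was at 75.9, 69.7 and 72.1 CPM in NC, 83.8, 81.9 and 71.1 CPM in SM2, and 108, 110 and 109 CPM in SM4 (0.59 ± 0.06 in SM4, adjusted p = 1.11e-07). SM2 replicate 3 was the lowest of the SM2 libraries for PARP9 and PARP14, and without it both were called higher in SM2 (0.14, adjusted p = 0.0404, and 0.20, adjusted p = 0.00167). PARP12, a related enzyme, was the only member that was lower in SM2 and higher in SM4. It was at 32.9, 32.4 and 34.4 CPM in NC, 30.3, 28.3 and 29.6 CPM in SM2, and 38.5, 38.8 and 38.3 CPM in SM4, without overlap. The log2 fold change was -0.18 ± 0.05 in SM2 (adjusted p = 0.0228), 0.21 ± 0.05 in SM4 (adjusted p = 0.00655) and 0.39 ± 0.05 between them (adjusted p = 3.59e-05). The SM2 call held in 11 of 16 alternatives. It was lost without NC replicate 1, NC replicate 3 or SM2 replicate 2, with values of -0.15 to -0.19, with no filter on low counts (adjusted p = 0.06) and with the NC and SM2 libraries fitted alone (adjusted p = 0.0501).

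Among the 3 membrane effectors, IFITM1 and PLSCR1 were called higher in both groups and BST2 in neither. The shares of all genes called higher were 12.0% in SM2 and 11.0% in SM4. IFITM1, which stops virus fusion at the cell surface, was at 23.3, 23.4 and 28.3 CPM in NC, 28.2, 29.6 and 31.9 CPM in SM2, and 29.8, 37.8 and 35.6 CPM in SM4. SM2 replicate 1 lay just below NC replicate 3, so that those groups overlapped, while SM4 was above NC. It was called in both (0.26 ± 0.09, adjusted p = 0.036, and 0.46 ± 0.09, adjusted p = 0.000462), and the SM2 call was lost without NC replicate 1, NC replicate 2, SM2 replicate 2 or SM2 replicate 3. IFITM1 shares 35.0% of its 50-base words with other genes, chiefly its paralogues IFITM3 and IFITM2. IFITM3 was also higher in SM2 (0.29) and SM4 (0.18), and IFITM2 was called higher in SM2 alone (0.17). PLSCR1, a phospholipid scramblase, rose slightly in both, from 69.4, 66.9 and 68.6 CPM in NC to 80.5, 78.2 and 80.4 CPM in SM2 and 83.1, 87.0 and 75.5 CPM in SM4 (0.22 and 0.26, adjusted p = 0.00323 and 0.000761). BST2 (tetherin, ENSG00000130303, chr19:17402939-17405630), which holds budding virus at the membrane, was at 128, 131 and 134 CPM in NC, 127, 132 and 147 CPM in SM2, and 141, 147 and 139 CPM in SM4. Its SM4 libraries lay above NC but the log2 fold change of 0.11 ± 0.05 was not called (adjusted p = 0.122), except without SM2 replicate 3 (adjusted p = 0.0194) or with the NC and SM4 libraries fitted alone (adjusted p = 0.0205). Against SM2 the SM4 level of BST2 was also called only without SM2 replicate 3 (0.13, adjusted p = 0.0317).

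PSMB8, the immunoproteasome subunit that shapes peptides for MHC class I, was at 83.4, 86.3 and 85.3 CPM in NC, 101, 99.9 and 118 CPM in SM2, and 107, 113 and 107 CPM in SM4. SM2 and SM4 overlapped each other above NC, and the log2 fold change was 0.32 ± 0.06 in SM2 (adjusted p = 0.000208) and 0.36 ± 0.06 in SM4 (adjusted p = 6.22e-05). Its antisense gene PSMB8-AS1, which holds 14.9% of its 50-base words, was at 1.76 to 3.81 CPM in all libraries. LGALS3BP, a secreted glycoprotein that binds galectins, was at 875, 864 and 904 CPM in NC, 860, 863 and 859 CPM in SM2, and 911, 938 and 909 CPM in SM4. SM4 lay above NC by a margin that was not called (0.06 ± 0.04, adjusted p = 0.262, 95% interval -0.01 to 0.14).

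Baseline levels were compared between members as CPM per kilobase of the canonical transcript, averaged over the NC libraries. They ranged from 0.10 for EPSTI1 to 400 for LGALS3BP, with a median of 9.43. Next below LGALS3BP were BST2 (131), ISG15 (118), IFI27 (84.9), PSMB8 (75.6) and TRIM25 (55.2), and the lowest after EPSTI1 were IFI44L (0.214), XAF1 (0.283), RSAD2 (0.419) and HERC5 (0.743). High baseline thus included both effectors and ligases, and the classical induced genes IFI44L and RSAD2 were near the bottom. The member that rose most in SM4, IFI6, stood at 14.3. Were the libraries labelled SM4 the control, these NC values would be levels of a knockdown and not a baseline. In SM4 the same measure was 0.376 for EPSTI1, 0.860 for IFI44L, 1.03 for XAF1, 0.790 for RSAD2 and 59.3 for IFI6. For HERC5 it was 0.683 and for LGALS3BP 418. Of the 9 members under 5 CPM in NC, 7 were called higher in SM4, beside 33 of all 43 members and 11.0% of all genes. That share is near the share of the members as a whole, and the NC level that picked the 9 also enters the comparison. Of the 8 members that rose at least 2-fold, 4 were among these 9. Over the 43 members, baseline per kilobase and log2 fold change in SM4 against NC had a Spearman's rho of -0.33, which is a description across genes that share the NC libraries. The same baseline against the difference of SM4 from SM2, which does not use the NC libraries, gave -0.33, and against SM2 from NC -0.16. Genes of the same libraries are not independent points. Precision also followed the level: the SE of the log2 fold change in SM4 ran from 0.04 for LGALS3BP to 0.31 for EPSTI1, so small changes were less detectable in the lowest members.

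**Figure D4:**
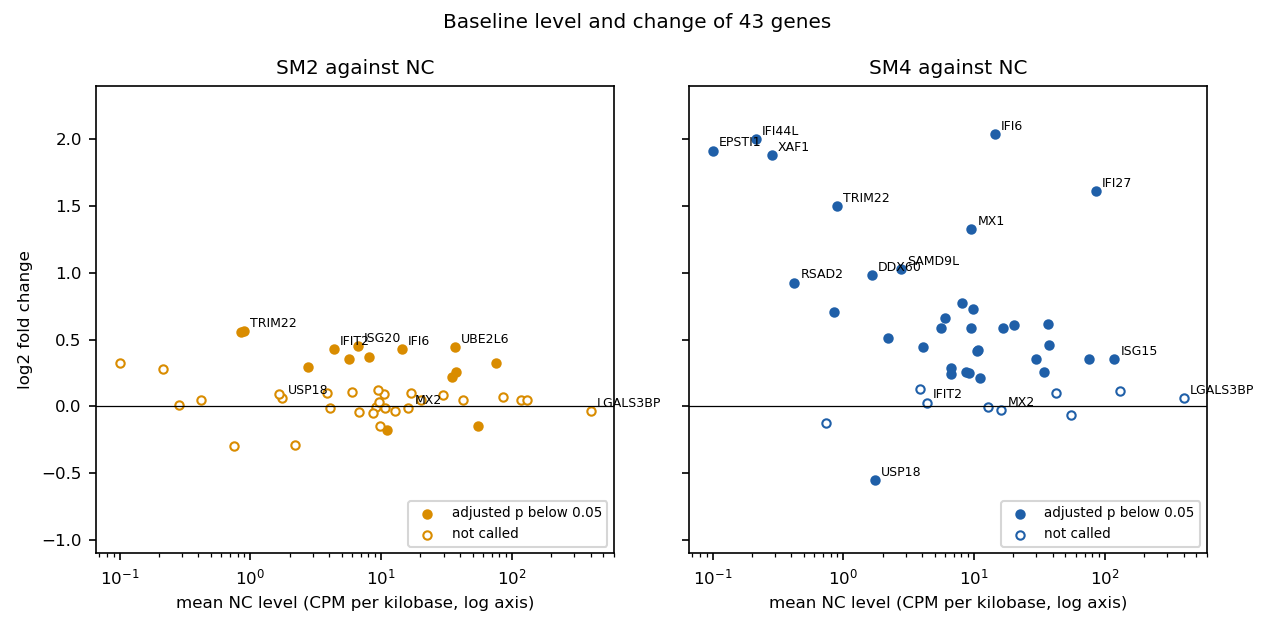
Log2 fold change against NC (y axis) and mean NC level per kilobase of transcript (x axis, log scale) of the 43 members, for SM2 (left) and SM4 (right), with filled points for an adjusted p below 0.05. In SM4 the changes above 1.8 sit at the lowest levels (EPSTI1, IFI44L and XAF1) and at 14.3 CPM per kilobase (IFI6), and the highest gene, LGALS3BP at 400, is near 0.

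The genes upstream of the members were read from lists of interferon ligands, receptors, kinases, factors and inhibitors. Of 10 interferon genes, 9 did not pass the filter and had at most 5 counts in any library, 4 of them 0 in all libraries, IFNG among them. IFNE, an epithelial type I interferon, passed it, at 0.274, 0.202 and 0.137 CPM in NC, 0.131, 0.457 and 0.226 CPM in SM2, and 0.641, 0.395 and 0.468 CPM in SM4. Its libraries did not overlap between NC and SM4, and its log2 fold change in SM4 was 1.31 at an adjusted p of 0.047. Among 6 receptor chains IFNGR1 fell in SM4 (98.4 to 106 CPM in NC and 75.9 to 82.9 CPM in SM4, log2FC -0.39, adjusted p = 4.49e-06), and IFNAR1, IFNAR2, IFNGR2, IFNLR1 and IL10RB were not called in either group. IFNAR2, which type I interferon signalling needs, was low in all libraries, at 2.07 to 3.13 CPM. STAT3 was lower in SM2 (log2FC -0.15, adjusted p = 0.0106), and the kinases JAK1, JAK2 and TYK2 were not called in either group. Beside these calls, 12.0% of all genes were higher and 10.3% lower in SM2, and 11.0% and 10.2% in SM4.

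Of 5 other interferon regulatory factors, IRF1 rose in both groups, from 48.4 to 51.9 CPM in NC to 56.3 to 62.1 CPM in SM2 (log2FC 0.25, adjusted p = 0.00154) and 62.6 to 68.0 CPM in SM4 (0.39, adjusted p = 1.51e-05). IRF8 rose in SM2 from 0.171 to 0.386 CPM to 1.19 to 1.58 CPM (2.23, adjusted p = 1.89e-05), IRF5 rose in SM2 (0.34, adjusted p = 0.0072), and IRF2 and IRF3 were not called. Of 7 negative regulators, SOCS3 was lower in both groups, at 28.4 to 30.2 CPM in NC, 21.3 to 23.5 CPM in SM2 and 18.3 to 19.0 CPM in SM4 (log2FC -0.41 and -0.66). PTPN2 was also lower in both (-0.25 and -0.16), USP15 in SM2 (-0.21), and SOCS1, PIAS1, PTPN6 and PTPN11 in neither. Beside these factors and regulators, 12.0% of all genes were higher and 10.3% lower in SM2. In SM4 the shares were 11.0% and 10.2%. Of 12 genes known best as targets of interferon-gamma, 7 were higher in SM2 and 9 in SM4, beside 12.0% and 11.0% of all genes, none was lower, and 2 (GBP5 and CXCL9) did not pass the filter. GBP2, GBP3, GBP4, CIITA, CXCL10, IDO1 and NLRC5 were called in both groups and GBP1 and WARS1 in SM4 alone. IDO1 went from 0.625 to 1.12 CPM in NC to 1.96 to 2.23 CPM in SM2 and 1.62 to 1.97 CPM in SM4 (1.20, adjusted p = 0.00029, and 1.03, adjusted p = 0.00133). Of the 10 tested, 3 were higher and 1 lower in SM4 than in SM2, beside 6.04% and 6.76% of all genes.

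Markers of other cell types were read beside these results. Of 10 immune cell markers, 7 were under 1 CPM in the mean of every group, with PTPRC, CD3E, MS4A1 and CLEC4C at or near 0, and the list summed to 41.9 to 46.1 CPM in NC, 60.7 to 64.4 CPM in SM2 and 43 to 46.2 CPM in SM4. The sum is mostly LYZ, which was at 35.3 to 38.7 CPM in NC, 50.3 to 53.8 CPM in SM2 and 31.1 to 33.7 CPM in SM4, and was called higher in SM2 and lower in SM4. CD14 (5.31 to 6.32, 7.98 to 8.79 and 9.83 to 10.6 CPM) and ITGAX (0.707 to 1.06, 1.56 to 2.29 and 1.66 to 1.85 CPM in NC, SM2 and SM4) were higher in both groups. The pan-leukocyte marker PTPRC had at most 0.0754 CPM in any library. Of 8 fibroblast and endothelial markers, 6 were under 1 CPM in the mean of every group, COL1A1 was level at 21 to 25.7 CPM, and PECAM1 was at 5.29 to 5.70 CPM in NC, 7.52 to 8.77 CPM in SM2 and 13.0 to 15.0 CPM in SM4 (log2FC 0.59 and 1.32). The endothelial marker CDH5 had at most 0.205 CPM. Of 8 epithelial markers, KRT8, KRT18 and KRT19 were called higher in both groups, MUC16 higher in SM2, CDH1 lower in both, EPCAM lower in SM2, and PAX8 in neither. For all marker lists, the shares of all genes were 12.0% higher and 10.3% lower in SM2, and 11.0% and 10.2% in SM4.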

How the data were processed

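RNA sequencing of OVCAR5 cells was analysed from the raw counts per gene that the authors deposited for 9 libraries, 3 per group, with no normalization. Per the study's methods the reads were aligned to hg38 with HISAT2 and counted with Subread, and the submitters' processing notes also name fastp and featureCounts, without versions. The strand used in counting is not given in the sources used here, so reads of a gene and its antisense partner cannot be told apart. The labels and the methods name different library kits and read layouts.

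Symbols, coordinates and lengths came from GENCODE release 44 (GRCh38). In R 4.3.3, filterByExpr of edgeR 4.0.16 kept 19674 of 60649 genes, TMM factors were 0.989 to 1.01, and genes were tested with the edgeR quasi-likelihood F test with all 9 libraries in 1 model with the group alone. P-values were adjusted (Benjamini-Hochberg) over the 19674 genes, and a gene was called below 0.05. Replicates had a common biological coefficient of variation of 0.0587. Values are TMM-scaled CPM, errors are SE of the log2 fold change unless SD is written, and intervals are 95%. Counts without molecular identifiers make counting error a lower limit. Baseline levels were divided by the length of the canonical transcript. Shared sequence was counted as 50-base words of a member's transcripts found in transcripts of other genes. The edgeR steps were tested on simulated data. Promoter windows came from RefSeq (GRCh38.p14).

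Alternatives were DESeq2 1.42.0 with its own size factors and test, upper-quartile factors, other filters, the libraries compared alone, a replicate block and each library left out. Replicate numbers showed no clear pairing of the libraries, which does not exclude a weak one. Correlations of same-numbered deviations were -0.063 to 0.095, none over 0.1, and those of differently numbered ones were -0.099 to 0.14. All 43 members, METTL3, and called genes of the pathway and marker lists are named, except for a few that are not reported here. The members and lists were chosen with earlier results of these data known.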

Additional observations from a re-analysis of the deposited data

Results flagged for a closer look

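PARP12 differed between SM2 and SM4 in the direction of its change from NC: all 3 SM2 libraries lay below and all 3 SM4 libraries above every NC library, so that its log2 fold change was -0.18 in SM2 (adjusted p = 0.0228) and 0.21 in SM4 (adjusted p = 0.00655). The direct edgeR test of SM4 against SM2 gave 0.39 (adjusted p = 3.59e-05). Were the libraries labelled SM4 the control, PARP12 would be lower in both knockdowns. The opposite directions hold only with the libraries labelled NC as the reference. The SM2 call held in 11 of 16 alternatives, and the SM4 calls held in all 16.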

How the results depend on the processing

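The counts of members called stayed within 1.5 times of those reported, and the medians kept their direction, under all 16 alternatives run. Between 11 and 15 members were called in SM2 against NC, 31 to 35 in SM4 against NC and 28 to 32 in SM4 against SM2, and the medians were 0.06 to 0.12 (0.07 as reported, and the highest without SM2 replicate 3), 0.41 to 0.46 and 0.28 to 0.33. With the replicate block, 15, 34 and 30 members were called, with medians of 0.07, 0.44 and 0.31. It changed the call of SAMD9 in SM2 and of UBE2L6 in SM4 against SM2 and no other call of a member. Each library left out changed some calls near the threshold, most of which are given with the members above, and IFIT1 in SM4 against SM2 was not called without SM2 replicate 2, SM4 replicate 1 or SM4 replicate 2. UBE2L6 in SM4 against SM2 (adjusted p = 0.0578) was called under 6 alternatives, and LGALS3BP (0.099, adjusted p = 0.0359) with DESeq2 alone.

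Values that changed sign were all near 0 and not called. Leaving out 1 library at a time gave the following ranges of log2 fold change. In SM2 against NC they were BST2 (-0.017 to 0.088), DTX3L (-0.043 to 0.046), IFI27 (-0.028 to 0.12), ISG15 (-0.023 to 0.092), MX1 (-0.032 to 0.095), MX2 (-0.056 to 0.017), RSAD2 (-0.075 to 0.21), SP110 (-0.041 to 0.022), STAT2 (-0.029 to 0.028), TRIM21 (-0.083 to 0.0033), USP18 (-0.041 to 0.26) and XAF1 (-0.088 to 0.13). In SM4 against NC they were HERC5 (-0.23 to 0.029), IFIT2 (-0.032 to 0.11) and TRIM21 (-0.028 to 0.036). In SM4 against SM2 they were HERC6 (-0.0079 to 0.063), MX2 (-0.039 to 0.032), PLSCR1 (-0.0071 to 0.094), PSMB8 (-0.0033 to 0.12) and TRIM21 (-0.0037 to 0.086). Upper-quartile factors gave 0.0072 for STAT2, 0.0017 for SP110, 0.0043 for MX2 and 0.0052 for DTX3L in SM2 against NC, and 0.018 for TRIM21 in SM4 against NC. TRIM21 in SM4 against NC was also 0.0021 with DESeq2 size factors, 0.0022 with the DESeq2 test, 0.0029 with no genes filtered, 0.0061 under a minimum mean of 1 CPM and 0.0023 with the replicate block. The cause was not tested. Depth limits the scarcest members, with 13 to 19 counts of EPSTI1 per NC library, and 3 libraries per group limit all of them.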
